A study of Mus musculus with 5 samples.

Results

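Integrin genes were examined for binding of Runx3, a transcription factor that cytotoxic T cells depend on, and for H3K4me1, a histone mark common at enhancers. The 10 genes were Itgae, which encodes CD103, and Itgb7, Itgal, Itgb2, Itgam, Itgax, Itga4, Itgb1, Itga1 and Itgav. They were taken from a list of names, and a called region was assigned to a gene when it shared at least 1 bp with the gene body extended by 20 kb on each side. By this rule 16 of the 9135 Runx3-bound regions and 45 of the 18992 H3K4me1-marked regions lay at these 10 genes among 22350 protein-coding genes. The cells were splenic CD8+ T cells (CD8-TC) of ICR mice, isolated with anti-CD8 magnetic beads, activated for 2 days through the T cell receptor with anti-CD3e and anti-CD28, and then grown for 4 days in 100 u/ml IL-2. All 5 libraries came from cells treated in this way, and they comprised 2 precipitations with anti-Runx3 antibody, 2 with non-immune rabbit serum (NIS) as control and 1 with an antibody to H3K4me1. Each antibody's peaks had been called a single time on joined reads, so a region is either present or absent, with no replicate error, no peak height and no read depth of its own. Comparisons are therefore descriptive, and the intervals given for shares are exact 95% binomial intervals that cover counting error among regions only.

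Integrins are membrane receptors made of 1 α and 1 β subunit that bind ligands on other cells or in the extracellular matrix. In T cells, the αE subunit CD103, from Itgae, pairs with the β7 subunit from Itgb7 in αEβ7, which binds E-cadherin on epithelia, whereas Itgal and Itgb2 form LFA-1, the receptor for ICAMs in contact with target cells. Itgam and Itgax pair with the same β2 subunit as Mac-1 and CD11c/CD18, Itga4 pairs with Itgb1 or Itgb7 in homing receptors for VCAM-1 and MAdCAM-1, Itga1 pairs with Itgb1 in the collagen receptor VLA-1, and Itgav is the α subunit of vitronectin receptors and of integrins that activate TGF-β.

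Runx proteins bind the core motif printed here as TGTGGT or TGTGGC or TGCGGT or TGCGGC on either strand. The following stretches of 250 bp from within 9 Runx3-bound regions are shown because they carry the RUNX motifs of these loci, and they are referred to again beside each gene. Each stretch held the most RUNX motifs of its region, with the one nearest to the region's centre taken among equals, and none overlapped an exon. All were read 5′ to 3′ on the plus strand of NCBIM37 (mm9), and capitals mark RUNX motifs, where ACCACA, for example, is TGTGGT on the minus strand. Itgb7 region 3 was added after its position was seen.
Itgae region 1, chr11:72908127-72908376: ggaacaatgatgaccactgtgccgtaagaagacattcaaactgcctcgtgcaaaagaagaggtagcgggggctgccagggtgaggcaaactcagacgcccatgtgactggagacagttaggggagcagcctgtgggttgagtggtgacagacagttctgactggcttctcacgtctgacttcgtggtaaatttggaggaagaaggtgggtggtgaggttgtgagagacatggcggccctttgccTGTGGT
Itgae region 2, chr11:72909111-72909360: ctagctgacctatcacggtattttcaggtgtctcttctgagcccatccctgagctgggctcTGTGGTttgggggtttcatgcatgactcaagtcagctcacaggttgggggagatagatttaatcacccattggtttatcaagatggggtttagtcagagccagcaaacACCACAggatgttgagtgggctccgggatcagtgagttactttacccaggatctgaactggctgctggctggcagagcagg
Itgb7 region 3, chr15:102061326-102061575: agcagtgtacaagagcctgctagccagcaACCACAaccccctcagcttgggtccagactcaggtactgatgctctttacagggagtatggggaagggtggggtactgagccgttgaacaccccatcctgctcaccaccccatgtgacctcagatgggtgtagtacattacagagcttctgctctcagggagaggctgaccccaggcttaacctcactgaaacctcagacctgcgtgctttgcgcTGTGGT
Itgb7 region 1, chr15:102033435-102033684: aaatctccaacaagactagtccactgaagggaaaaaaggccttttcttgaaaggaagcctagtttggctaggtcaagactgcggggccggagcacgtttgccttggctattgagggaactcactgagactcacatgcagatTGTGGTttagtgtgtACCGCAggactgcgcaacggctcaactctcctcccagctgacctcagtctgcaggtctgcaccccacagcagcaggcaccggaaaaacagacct
Itgal region 1, chr7:134428745-134428994: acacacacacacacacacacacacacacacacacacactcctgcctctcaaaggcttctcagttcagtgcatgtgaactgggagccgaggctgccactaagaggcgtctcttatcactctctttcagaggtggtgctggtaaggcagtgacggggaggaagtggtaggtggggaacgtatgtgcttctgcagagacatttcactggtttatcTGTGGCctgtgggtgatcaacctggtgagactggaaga
Itgb2 region 2, chr10:76985063-76985312: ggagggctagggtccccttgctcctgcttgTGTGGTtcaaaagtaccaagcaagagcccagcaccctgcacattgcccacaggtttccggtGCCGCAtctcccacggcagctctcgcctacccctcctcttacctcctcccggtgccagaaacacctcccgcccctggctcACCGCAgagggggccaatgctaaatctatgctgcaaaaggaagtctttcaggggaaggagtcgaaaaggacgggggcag
Itgam region 1, chr7:135263303-135263552: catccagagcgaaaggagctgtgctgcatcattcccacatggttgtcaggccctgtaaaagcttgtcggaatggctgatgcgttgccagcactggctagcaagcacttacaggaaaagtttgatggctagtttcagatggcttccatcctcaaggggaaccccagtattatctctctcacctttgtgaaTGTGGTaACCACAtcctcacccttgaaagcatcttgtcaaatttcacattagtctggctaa
Itga4 region 1, chr2:79110193-79110442: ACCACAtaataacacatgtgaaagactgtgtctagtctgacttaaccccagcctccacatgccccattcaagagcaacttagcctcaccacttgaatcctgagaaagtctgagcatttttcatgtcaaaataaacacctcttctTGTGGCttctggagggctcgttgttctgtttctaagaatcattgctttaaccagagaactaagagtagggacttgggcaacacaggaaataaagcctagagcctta
Itgb1 region 1, chr8:131248818-131249067: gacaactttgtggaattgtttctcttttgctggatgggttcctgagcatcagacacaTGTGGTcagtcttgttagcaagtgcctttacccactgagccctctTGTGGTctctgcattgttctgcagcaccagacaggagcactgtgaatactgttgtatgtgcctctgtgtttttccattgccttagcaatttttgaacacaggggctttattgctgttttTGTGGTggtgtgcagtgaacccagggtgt

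The RUNX motifs in these stretches differed in number, spacing and orientation. Itgae region 2, from the first intron of the CD103 gene, held 2 TGTGGT motifs on opposite strands with 102 bp between them, and the region around it had an AP-1 motif 16 bp from a RUNX motif. Itgam region 1 held 2 TGTGGT motifs on opposite strands separated by 1 bp, and Itgb7 region 1 held TGTGGT and TGCGGT on opposite strands separated by 9 bp. RUNX motifs at most 10 bp apart were present in these 2 of the 16 regions, and in 13.3% of all Runx3-bound regions. Itgb1 region 1 held 3 TGTGGT motifs, all on the plus strand, with 39 bp and 113 bp between neighbours.

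Runx3-bound regions were present at 8 of the 10 integrin genes. Among all protein-coding genes 34.2% had at least 1 Runx3-bound region by the same rule. When regions closer to the start of another protein-coding gene were left out, Itgal, Itgb2 and Itgam had none left, so that 5 of the 10 genes had Runx3, against 20.6% of all protein-coding genes treated in the same way. At least 2 regions were present at 5 of the 10 genes, which were Itgae, Itgb7, Itgal, Itgb2 and Itgax, against 13.6% of all protein-coding genes. H3K4me1-marked regions were present at 9 of the 10 genes, with Itga1 as the exception, against 39.4% of all protein-coding genes. Among the 9 integrin genes with H3K4me1, 8 had Runx3, against 66.5% of the protein-coding genes with H3K4me1. The windows of the integrin genes were longer, with a median of 92.2 kb against 55.4 kb, and longer windows hold more regions. Per 100 kb of window, the mean was 2.27 Runx3-bound regions for the 10 integrin genes and 0.832 for all protein-coding genes, and the mean for H3K4me1 was 5.87 and 1.52 regions. The genes were picked by name, with earlier results of these data known, and the difference from other genes was not tested.

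**Figure D1:**
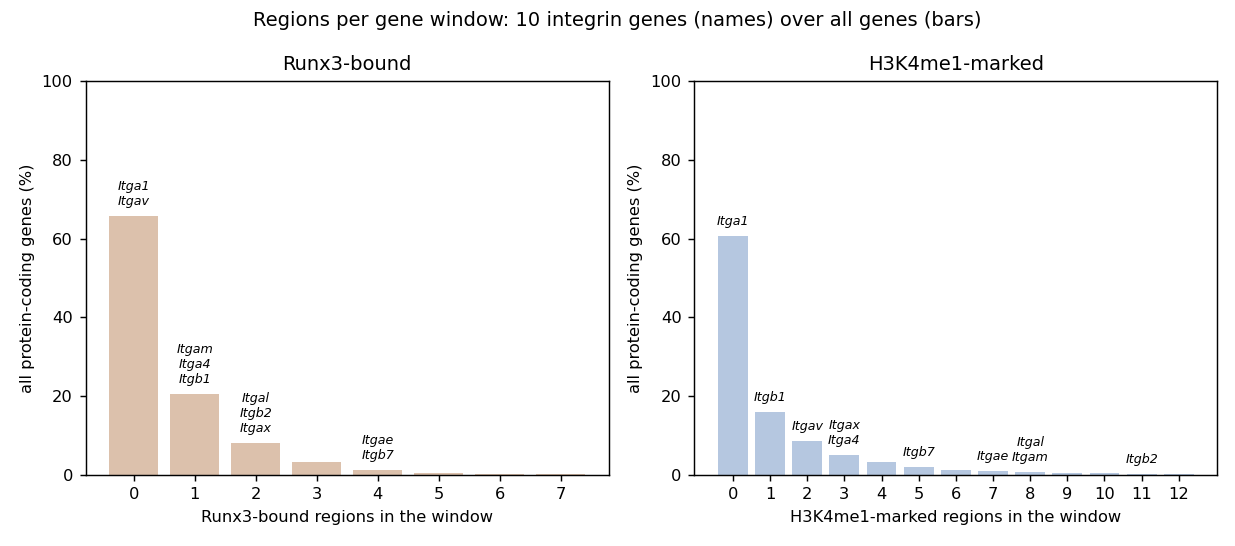
Share of protein-coding genes (y axis, percent) with each number of regions in the gene body and 20 kb on each side (x axis), for Runx3 and for H3K4me1, with each of the 10 integrin genes written above its number and the far tail not drawn. Itgae and Itgb7 have 4 Runx3-bound regions each, a number reached or passed by 2.19% of genes, and Itgb2 has 11 H3K4me1-marked regions, reached or passed by 0.971%. Regions closer to the start of another gene are counted.

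The order of the 10 genes by number of regions was not the same for Runx3 and for H3K4me1. The 16 different Runx3-bound regions were distributed as 4 at Itgae, 4 at Itgb7, 2 at Itgal, 2 at Itgb2, 1 at Itgam, 2 at Itgax, 1 at Itga4, 1 at Itgb1, 0 at Itga1 and 0 at Itgav, with 1 region counted at both Itgam and Itgax. The H3K4me1-marked regions numbered 7 at Itgae, 5 at Itgb7, 8 at Itgal, 11 at Itgb2, 8 at Itgam, 3 at Itgax, 3 at Itga4, 1 at Itgb1, 0 at Itga1 and 2 at Itgav, with 3 regions counted at both Itgam and Itgax. The genes of the αEβ7 subunits had the most Runx3-bound regions, whereas the β2 gene Itgb2 had the most H3K4me1-marked regions and the largest share of its window covered by them, at 21.6%. The Runx3 counts include regions at the starts of other genes. Itgae region 4 was 0.092 kb from that of Gsg2, and Itgb7 region 1 was 0.519 kb from that of Zfp740. Itgb7 region 4, over Rarg, was 0.112 kb from a transcript start. The lowest cover was found at Itga1, Itgb1 and Itgav, at 0, 1.15 and 2.22% of the window, and at Itga4, at 4.37%. The other 5 genes lay between 13.4% at Itgb7 and 18.5% at Itgam.

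**Figure D2:**
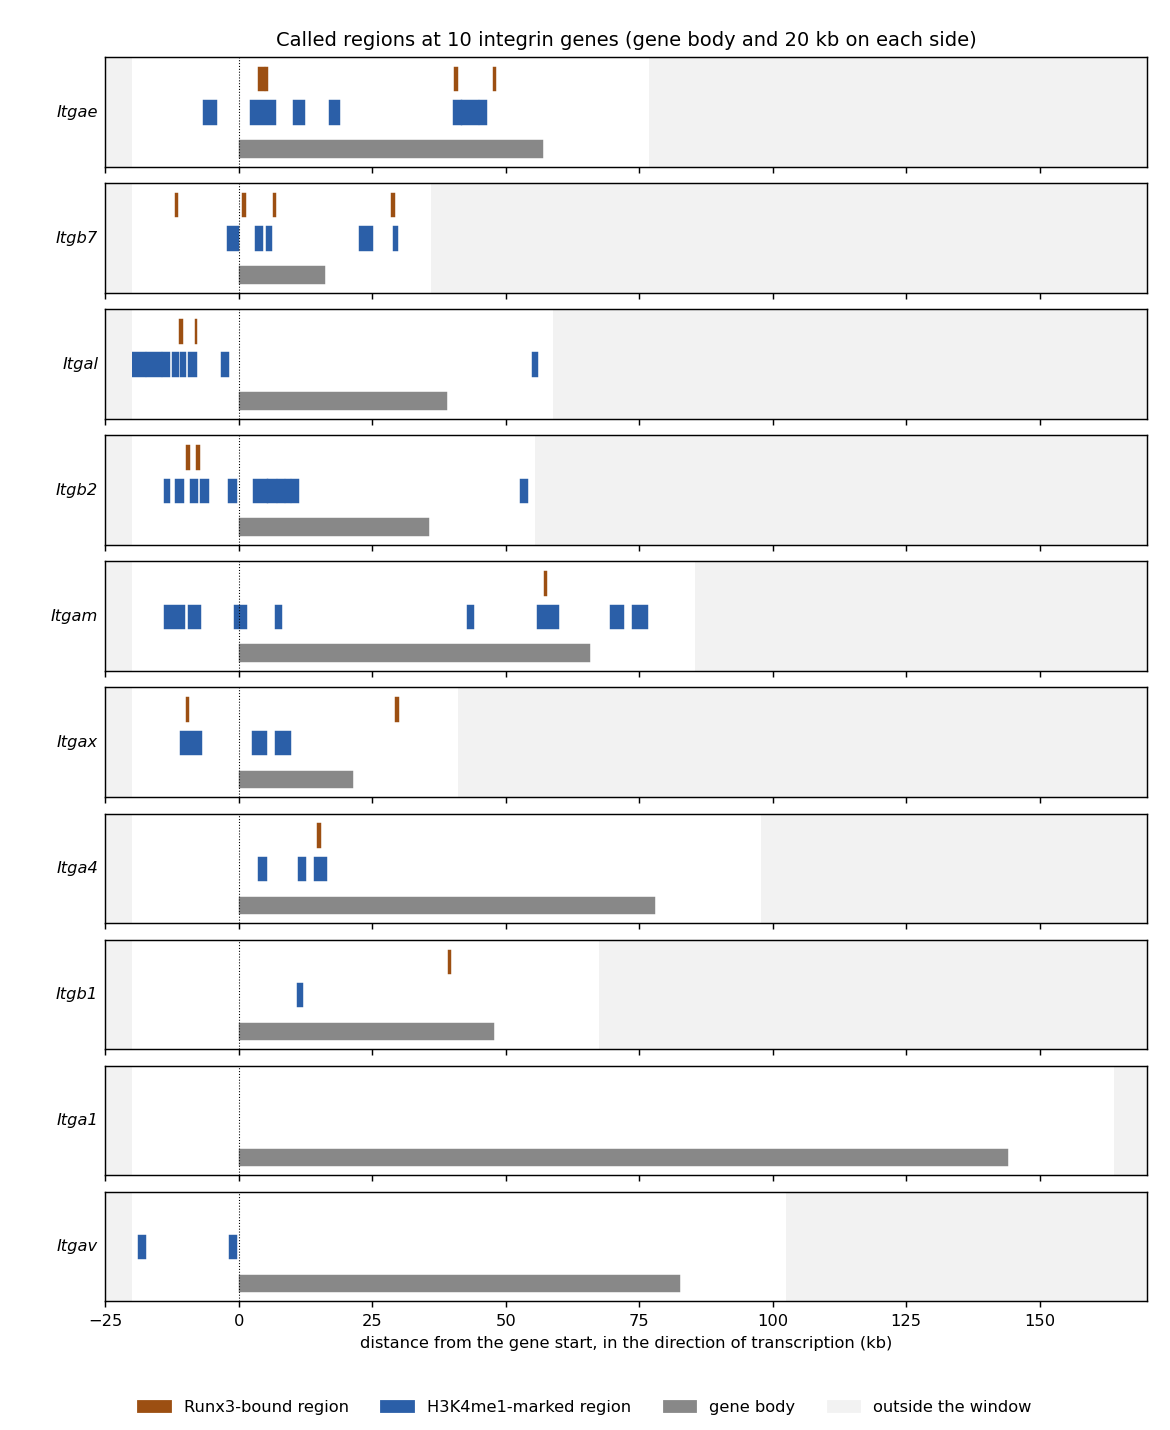
Maps of the 10 integrin genes to scale, with the distance from the gene start in kb on the x axis (positive into the gene), the gene body as a bar, Runx3-bound regions and H3K4me1-marked regions as blocks on separate tracks, and the part outside the window shaded. Runx3-bound regions lie in the gene at Itgae, Itgb7, Itgam, Itga4 and Itgb1, and only outside it at Itgal, Itgb2 and Itgax, while Itga1 has no region of either kind and Itgav no Runx3-bound region.

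Itgae (ENSMUSG00000005947, chr11:72904085-72960948, plus strand) had all 4 of its Runx3-bound regions inside the gene. Region 1 at chr11:72907651-72908719 was the widest of the 16, at 1069 bp, and region 2 at chr11:72909074-72909399 was 326 bp wide. Their centres lay 4.1 and 5.15 kb from the gene start, both in intron 1, and both were wholly covered by the same H3K4me1-marked region at chr11:72906228-72910798. This H3K4me1-marked region was 4571 bp wide and the widest at any of the 10 genes. The first intron of the CD103 gene thus held a pair of Runx3-bound regions, 1.05 kb apart, in a single stretch of H3K4me1. Region 1 held 2 TGTGGT motifs and 3 ETS motifs, and region 2 held 2 TGTGGT motifs, 1 AP-1 motif and 0 ETS motifs.

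The other 2 Runx3-bound regions of Itgae lay in the 3′ part of the gene, where another gene starts. Region 3 was wholly covered by H3K4me1. Region 4 at chr11:72951695-72952082 was 47.8 kb from the Itgae start and overlapped coding exon 27 of the 31-exon transcript, but its centre was only 0.092 kb from the start of Gsg2, which encodes the histone kinase haspin and lies inside Itgae. Region 4 had no H3K4me1, and the nearest H3K4me1-marked region was 1.36 kb away. The nearest coding start to region 3 was also that of Gsg2, so that 2 of the 4 regions were nearest to the Itgae start.

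Itgb7 (ENSMUSG00000001281, chr15:102046426-102062366, minus strand) encodes the partner of αE and has the shortest gene body of the 10, at 15.9 kb. It had 4 Runx3-bound regions in its window, or 7.15 per 100 kb, the highest density of the 10 genes, and Itgae followed with 4.13. Region 3 at chr15:102061161-102061736 was 576 bp wide, and its centre lay 0.918 kb into the gene in intron 1. It was the only one of the 16 within 1 kb of the start of the integrin gene to which it was assigned. It held 2 TGTGGT motifs with 209 bp between them, as printed, and had no H3K4me1, but H3K4me1-marked regions lay on both sides of it, the nearer one 0.693 kb away. A second intronic region was 6.57 kb from the start, 0.342 kb from the nearest H3K4me1-marked region, and held 1 TGCGGC motif 5 bp from an ETS motif. The 2 remaining regions lay outside the gene. The region downstream of Itgb7 was 0.519 kb from the start of Zfp740, a zinc finger gene, and shared 113 bp with an H3K4me1-marked region at its edge. The region upstream, over the retinoic acid receptor gene Rarg, was 0.112 kb from an annotated transcript start, although the nearest start of a protein-coding gene was that of Itgb7, and it was 9.38 kb from H3K4me1. None of the 4 Runx3-bound regions of Itgb7 had its centre in H3K4me1, in contrast to 3 of the 4 at Itgae.

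Itgal (ENSMUSG00000030830, chr7:134439774-134478651, plus strand), the α subunit of LFA-1, had no region of either kind inside the gene. Its 2 Runx3-bound regions lay upstream, 10.9 and 8.09 kb before the start and 2.82 kb apart. Both lay in a run of 6 H3K4me1-marked regions which, joined over gaps of less than 1 kb, extended over 12.3 kb, from -20.4 to -8.09 kb relative to the start. Region 1 at chr7:134428544-134429196 was 653 bp wide and had its centre in an H3K4me1-marked region, 191 bp from its edge. Region 2 at chr7:134431571-134431806 was the narrowest of the 16, at 236 bp, with its centre 2 bp outside the last H3K4me1-marked region of the run, so that 49.2% of its width was covered. It was also the only one of the 16 without a RUNX motif, and it held 2 ETS motifs. Another gene model, Gm17511, starts between the 2 regions, 1.14 kb from the first and 1.68 kb from the second, and was closer to both than Itgal.

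Itgb2 (ENSMUSG00000000290, chr10:76992997-77028453, plus strand) encodes the β2 subunit shared by LFA-1, Mac-1 and CD11c/CD18. Its 2 Runx3-bound regions also lay upstream, 9.65 and 7.81 kb before the start and 1.84 kb apart, as at Itgal. Region 1 at chr10:76983097-76983592 had no H3K4me1 but lay in a gap between H3K4me1-marked regions, whose edges were 593 bp from its centre on one side and 790 bp on the other. Region 2 at chr10:76984907-76985470 was 564 bp wide and had its centre in an H3K4me1-marked region of 1303 bp, 51 bp from the edge. It held 3 RUNX motifs, each of a different sequence, and had an ETS motif 2 bp from a RUNX motif. The gene 1810008A18Rik starts closer to both regions than Itgb2, 4.79 kb from region 1 and 6.63 kb from region 2. The largest group of H3K4me1 at Itgb2 was elsewhere: 5 H3K4me1-marked regions extended over 8.47 kb in the first intron, from 2.6 to 11.1 kb after the start, and held 0 Runx3-bound regions. The pair of β2 integrin genes that form LFA-1 thus had their Runx3-bound regions upstream, whereas 6 of the 8 at the αEβ7 genes were inside them. Itgae regions 3 and 4, nearest to the start of Gsg2, are among these 6.

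**Figure D3:**
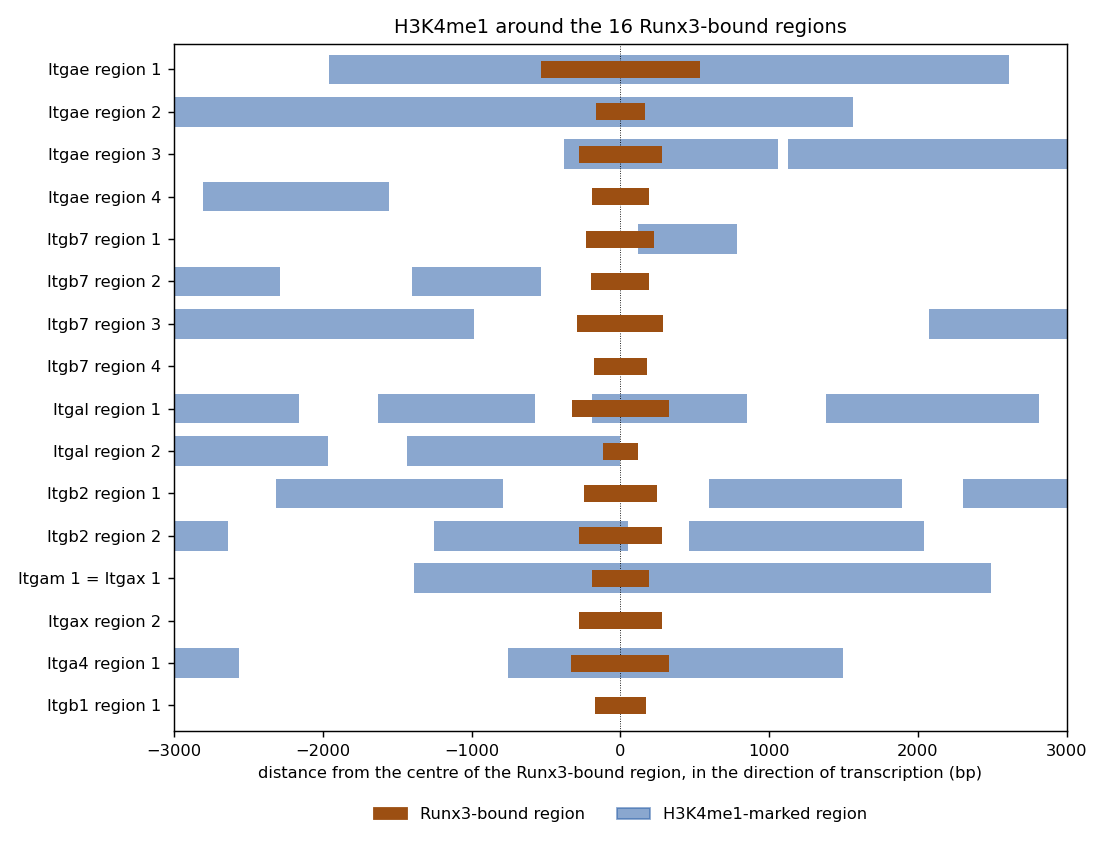
Close view of Runx3-bound regions in relation to H3K4me1-marked regions, with the distance from the centre of the Runx3-bound region in bp on the x axis (positive in the direction of transcription) and 1 row for each of the 16 regions. The centre lies in H3K4me1 for 7 regions, and 2 others overlap H3K4me1 with the centre outside it. Only for Itgb2 region 1 does the centre lie between H3K4me1-marked regions that are within 1 kb on both sides.

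Itgam and Itgax are neighbours on chromosome 7 and encode the α subunits of Mac-1 and CD11c/CD18. These receptors are best known from myeloid and dendritic cells and also occur on activated CD8+ T cells. Itgam (ENSMUSG00000030786, chr7:135206154-135271674, plus strand) had 1 Runx3-bound region, at chr7:135263238-135263618. It was 381 bp wide, lay in intron 29 of the 30-exon transcript, 57.3 kb from the Itgam start, and was wholly covered by an H3K4me1-marked region of 3876 bp. The same region was 9.63 kb before the start of Itgax (ENSMUSG00000030789, chr7:135273061-135294171, plus strand), which was the nearest coding start. The region thus lies in the 3′ part of one β2 integrin α gene and upstream of the next, and its printed TGTGGT pair separated by 1 bp was the closest RUNX pair of the 16. Itgax had a second region at chr7:135302247-135302805, of 559 bp, which lay 29.5 kb from its start and beyond its end, over Itgad, the neighbouring α subunit gene. This second region had 5 RUNX motifs, the most of the 16, and was 18.6 kb from H3K4me1. Of the 10 gene starts only that of Itgam lay in an H3K4me1-marked region, at chr7:135205238-135207420, and it had no Runx3 there.

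Itga4 (ENSMUSG00000027009, chr2:79095583-79173280, plus strand), the α4 subunit of VLA-4 and α4β7, had 1 Runx3-bound region at chr2:79110175-79110834. It was 660 bp wide and lay 14.9 kb into the gene in intron 3, wholly covered by an H3K4me1-marked region of 2252 bp, the widest of the 3 at this gene. It held 1 TGTGGT and 1 TGTGGC motif, but none within the central 200 bp. Itgb1 (ENSMUSG00000025809, chr8:131209554-131257100, plus strand), the β1 subunit used by VLA-4 and VLA-1, had 1 Runx3-bound region at chr8:131248773-131249114, in intron 14 and 39.4 kb from the start. The centre of this region was 0.71 kb from an annotated transcript start. This region was 342 bp wide, held the 3 TGTGGT motifs printed above and was 27.4 kb from the only H3K4me1-marked region in the window, which was 1011 bp wide. The Runx3-bound regions of Itga4 and Itgb1 stood alone, with the next one 149 and 148 kb away.

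Itga1 and Itgav had no Runx3-bound region. Itga1 (ENSMUSG00000042284, chr13:115748287-115892172, minus strand), the collagen-binding α1 subunit of VLA-1, had the longest window, of 184 kb, with 0 regions of either kind. The Runx3-bound region nearest to it was 42 kb from the gene and closest to the start of the neighbouring integrin gene Itga2, and the nearest H3K4me1-marked region was 28.7 kb away. Itgav (ENSMUSG00000027087, chr2:83564554-83647073, plus strand), the αv subunit, had 2 H3K4me1-marked regions upstream, the nearer one 0.491 kb before the start and the wider one 1387 bp. The Runx3-bound region nearest to Itgav was 775 kb away. Lists of called regions give no limit for binding below the calling threshold, so these genes had no called region, which does not show that no Runx3 was bound.

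Across the 10 genes, the 16 Runx3-bound regions had 7 in introns and 2 touching coding exons of the integrin genes, 5 upstream and 2 downstream. For 8 of the 16 the nearest coding start was that of an integrin gene of the list, and for the other 8 it was that of another gene. The first 8 include Itgb7 region 4, which lay over Rarg and 0.112 kb from an annotated transcript start. The centre was within 1 kb of a protein-coding start for 3 regions (18.8%, interval 4.05 to 45.6), near the 19.5% of the whole list, and over 5 kb from one for 8 regions (50%, interval 24.7 to 75.3), beside 69% of the whole list. For 5 regions the centre was within 1 kb of any annotated transcript start (31.2%, interval 11 to 58.7), beside 26.3%. The windows reach only 20 kb beyond a gene, whereas the whole list also holds regions far from genes. Shares by distance are therefore not like for like. For H3K4me1 the share over 5 kb from a coding start was likewise lower in the windows, at 51.1% beside 79.5%. Another Runx3-bound region lay within 10 kb for 10 of the 16 (62.5%, interval 35.4 to 84.8), beside 33.5% of the whole list. These 10 regions were the 4 of Itgae, 2 of Itgb7, the pair of Itgal and the pair of Itgb2, so each has its neighbour in the same window, and they are not independent of each other.

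H3K4me1 overlapped 9 of the 16 Runx3-bound regions (56.2%, interval 29.9 to 80.2), beside 57.3% of the whole list. Of these, 5 were covered over their whole width and 4 in part. The 7 without H3K4me1 had it under 1 kb away in 3 cases and over 9 kb away in 3 cases. In the other direction, 8 of the 45 H3K4me1-marked regions held Runx3 (17.8%, interval 8 to 32.1), beside 29.2% of the whole list. H3K4me1-marked regions without Runx3 numbered 37, and they were found at each of the 9 marked genes. An H3K4me1-marked region lay over the start or within 3 kb of it at 7 of the 10 genes, against 13.9% of all protein-coding genes, and a Runx3-bound region at 1, Itgb7, against 11.7%. H3K4me1-marked regions are more numerous and wider, so these 2 counts were not compared with each other. The mark lay over the start of Itgam, and its distance ran from 63 bp at Itgb7 to 2520 bp at Itgax for the other 6. The width of Runx3-bound regions had a median of 477 bp (range 236 to 1069 bp), beside 521 bp in the whole list, and that of H3K4me1-marked regions a median of 1444 bp (range 670 to 4571 bp), beside 1592 bp.

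RUNX motifs were found in 15 of the 16 regions (93.8%, interval 69.8 to 99.8), beside 92.6% of all Runx3-bound regions, and in the central 200 bp of 13 regions (81.2%, interval 54.4 to 96), beside 78.8%. The regions held 34 RUNX motifs in all, of which 22 were TGTGGT, 5 were TGTGGC, 4 were TGCGGT and 3 were TGCGGC. The variant TGTGGT was present in 13 regions (81.2%, interval 54.4 to 96), beside 69.6% of all Runx3-bound regions, and TGTGGC in 4 (25%, interval 7.27 to 52.4), beside 45.7%. The ETS motif, searched as AGGAAA or AGGAAG or CGGAAA or CGGAAG on both strands, is the core bound by Ets1 and its relatives, and it was present in 15 regions (93.8%), beside 88.9%. The AP-1 motif, TGACTCA or TGAGTCA, which are reverse complements of each other, is bound by Jun and Fos or Batf dimers. It was found in 4 regions (25%, interval 7.27 to 52.4), beside 13.5%, and these were Itgae region 2, Itgb7 region 3, Itgb2 region 1 and Itgam region 1. In the central 200 bp it was found only in Itgae region 2 (6.25%, interval 0.158 to 30.2), beside 6.5%. A RUNX motif with an ETS motif at most 50 bp away was present in 8 regions, or 50%, beside 57.4%. A RUNX motif with another RUNX motif at most 50 bp away was present in 4 regions, or 25%, beside 37.4%. With an AP-1 motif at most 50 bp away it was present in 2 regions (12.5%, interval 1.55 to 38.3), beside 5.78%. These were Itgae region 2 and Itgb7 region 3. Except where the central 200 bp are named, motifs were counted in whole regions, which differ in width, and sites of different motifs were allowed to overlap. A match of letters is not evidence of binding to that site.

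**Figure D4:**
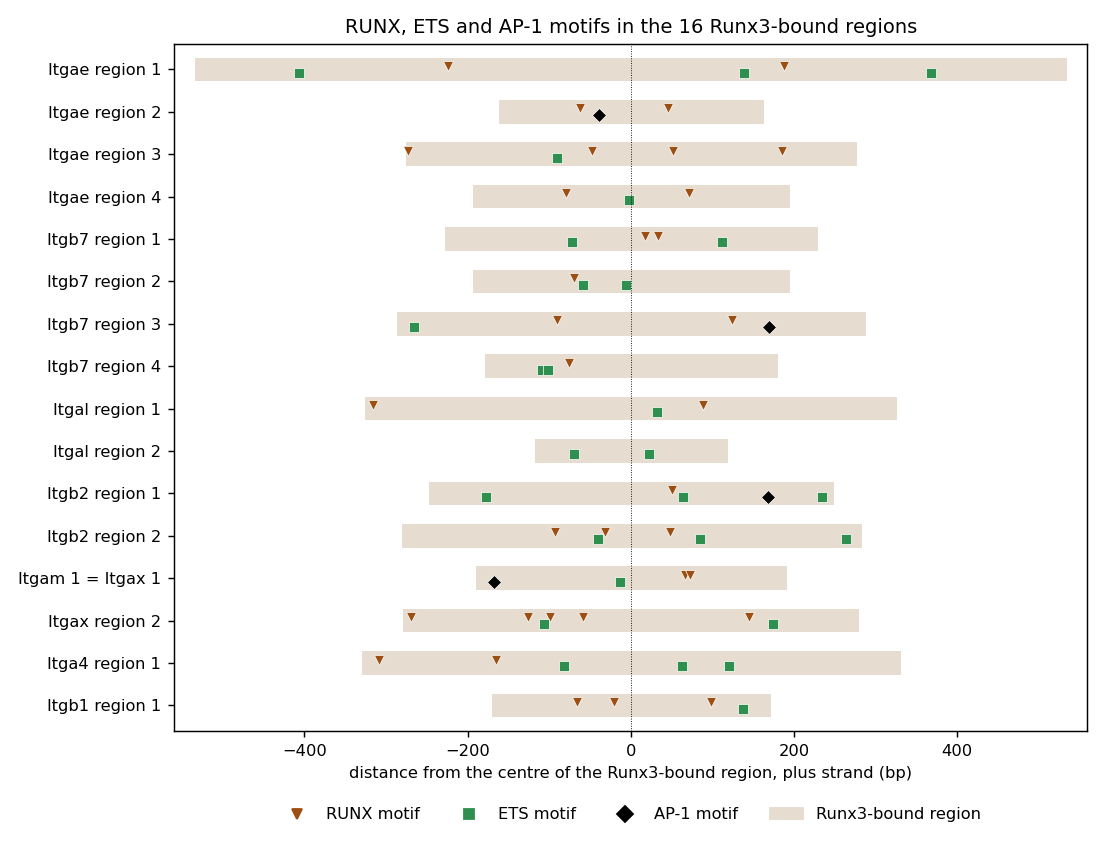
Positions of RUNX, ETS and AP-1 motifs in the 16 Runx3-bound regions, with the distance from the region's centre in bp on the plus strand on the x axis and 1 row for each region. Each row is drawn over the region's width, and only the narrowest one, Itgal region 2, has no RUNX motif.

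The label of CD8+ T cells was checked against markers of T, B, and myeloid or dendritic cells. All 7 T cell markers, namely Cd3e, Cd3d, Cd3g, Cd8a, Cd8b1, Cd2 and Cd5, had at least 2 Runx3-bound regions, and H3K4me1 covered 11 to 36.3% of their windows, although the windows of the 3 Cd3 genes overlap. Among 5 B cell markers, 2 had a Runx3-bound region and H3K4me1 covered 0 to 8.92%, with Cd79b and Ms4a1 at 0 regions of both kinds. Among 6 myeloid and dendritic cell markers, 1 had a Runx3-bound region, Zbtb46, and H3K4me1 covered 0 to 7.96%, with Csf1r, Lyz2 and Cybb at 0 of both kinds. The cover at Itgam and Itgax, genes that such cells also use, was 18.5 and 15.2%. By the same rule 34.2% of all protein-coding genes had a Runx3-bound region, 13.6% had at least 2 and 39.4% had H3K4me1. Runx3 was present at 100% of the T cell, 40% of the B cell and 16.7% of the myeloid and dendritic cell markers. H3K4me1 was present at 7 of 7, 3 of 5 and 3 of 6 of them. The B cell markers were thus not below all genes in either share, and the myeloid and dendritic cell markers were below them only in the share with Runx3.

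Genes that act with these integrins were taken from lists by function, and they were described in the same way. The first list held 18 genes for activators and adaptors that link integrins to the cytoskeleton and to signals from the T cell receptor. Of these, 16 had a Runx3-bound region, 14 had at least 2 and all 18 had H3K4me1. Among all protein-coding genes the shares were 34.2, 13.6 and 39.4%. Windows in this list ran from 46.3 kb at Ilk to 335 kb at Skap1, beside a median of 55.4 kb for all protein-coding genes. Longer windows hold more regions. The highest numbers of Runx3-bound regions were 5 at Cyth1, an exchange factor that binds the β2 tail, 4 at Apbb1ip, which encodes RIAM, the Rap1 effector that recruits talin, and 4 at Pxn, which encodes the adaptor paxillin. The 2 without Runx3 were Vcl and Actn1, the cytoskeletal proteins vinculin and α-actinin. The median was 1.85 Runx3-bound regions per 100 kb for these genes and 1.84 for the 10 integrin genes, and 0 for all protein-coding genes, while the median cover by H3K4me1 was 6.73 and 14.3% of the window, and 0% for all protein-coding genes.

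The 16 other integrin subunit genes and 10 ligand genes had fewer regions. Among the other subunits, 6 had a Runx3-bound region and 7 had H3K4me1, with a median of 0 for both. The highest numbers were 2 each at Itga2, Itga6, Itgad and Itgb3, which encode the α2, α6, αD and β3 subunits, and the window of Itgad shares regions with that of Itgax. Runx3-bound regions were not called at 10 of these genes. Among the ligand genes, 6 had a Runx3-bound region and 6 had H3K4me1, with Cdh1, the gene of E-cadherin, the ligand of αEβ7, as the only one with 2 Runx3-bound regions. The 4 ligand genes without Runx3 were Icam5, Vcam1, Vtn and Jam2. The shares with Runx3 were 37.5% of the other subunits, 88.9% of the activators and adaptors and 60% of the ligands, beside 34.2% of all protein-coding genes, with no test between the lists. Of all protein-coding genes, 39.4% had H3K4me1 and 13.6% had at least 2 Runx3-bound regions. Windows differ in length between the lists, and the shares were not adjusted for it.

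**Figure D5:**
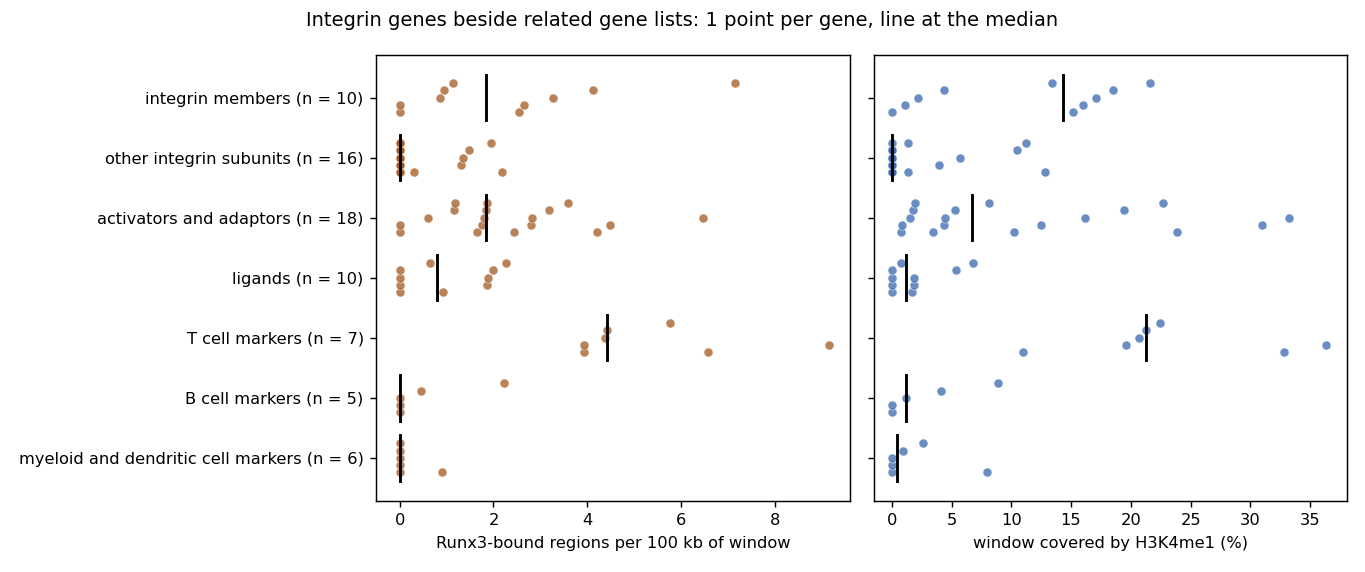
Values by gene list (y axis), with Runx3-bound regions per 100 kb of window on the x axis of the left panel and the percent of the window covered by H3K4me1 on that of the right panel, 1 point for each gene and a line at each list's median. The T cell markers lie between 11 and 36.3% of H3K4me1 cover, the 10 integrin genes between 0 and 21.6%, and the other subunits between 0 and 12.8%.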

How the data were processed

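Libraries were made from IL-2-activated CD8-TC by ChIP-seq, namely 2 for Runx3, 2 for NIS and 1 for H3K4me1 (1 by its label, although the protocol speaks of 2 repeats, so how many stand behind that list is not known). The authors used ELAND to align reads to mm9, and the uniquely aligned ones were kept. They joined repeats and called peaks with MACS 1.4 against joined NIS reads, after scaling the larger read set to the smaller. Joining hides the spread between repeats, and unique alignment limits calls in repeated sequence. The deposited values, in 2 lists, are start and end positions in bp, with 0 score columns. Depth per region is therefore unknown.

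Regions were assigned to genes of GENCODE vM1 on NCBIM37 (mm9) by an overlap of at least 1 bp with the gene body and 20 kb on each side, with coordinates counted from 1. The longest coding transcript gave introns and exons. Gene start means the outermost annotated base of the gene, and other genes' starts are those of protein-coding genes unless a transcript start is named. Motifs were searched on both strands. All 10 genes are named. Coordinates are given for each Runx3-bound region of Itgae, except 1 whose sequence and position are not reported here, and, for other genes, for the region nearest to the start and the widest one. In each related list the genes with the most Runx3-bound regions are named. The members and lists were chosen with earlier results of these data known, and no test was run. Intervals are Clopper-Pearson. Alternatives were other windows, overlaps, motif windows and widths. Python 3.11.15, NumPy 2.4.6, SciPy 1.17.1 and matplotlib 3.10.9 were used. Overlap calls over 500 simulated regions and motif calls on random sequences had 0 differences from direct counting. Distances were not tested in this way.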

Additional observations from a re-analysis of the deposited data

How the results depend on the processing

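The counts depended on how far a gene window reached. With gene bodies alone, 9 Runx3-bound and 23 H3K4me1-marked regions and 5 integrin genes with Runx3 were left, beside 18.1% of all protein-coding genes with Runx3 and 21.1% with H3K4me1. With 5 kb on each side, the values were 9 regions, 28 regions and 5 genes, beside 23.5 and 28.6%. With 50 kb on each side, all protein-coding genes had 47.9 and 52.3%, and the integrin counts were within 1.5 times the reported ones. When regions closer to another gene's start were left out, 8 Runx3-bound regions, 28 H3K4me1-marked regions and 5 genes with Runx3 were left, beside 20.6% of all protein-coding genes with Runx3 and 25.4% with H3K4me1, both added after seeing the data. When only regions at least as wide as their list's median were kept, 7 Runx3-bound and 19 H3K4me1-marked regions were left. Of the Runx3-bound regions left, 28.6% overlapped an H3K4me1-marked region that was also left. This setting leaves out the narrower H3K4me1-marked regions over Itgae region 3, Itgal region 1 and Itgb2 region 2. The share therefore does not show that wide Runx3-bound regions lack H3K4me1, and the whole list's share in this setting is not given. The share of Runx3-bound regions with a RUNX motif was 100% with gene bodies alone, with 5 kb and with wide regions only, since each leaves out the single region without one. These are 23 of 59 alternative values. The other 36 moved by less than 1.5 times for counts, or stayed within the counting interval for shares.

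No paired analysis was possible because peaks were called once on joined reads, and for the same reason no library was left out in turn. Region calls depend on read depth, and the lists do not give the reads behind a region.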
